A study of Homo sapiens with 2 samples.

Results

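The BCL2 family was examined through 10 of its genes, chosen by name: 4 anti-apoptotic genes (BCL2, BCL2L1, BCL2L2 and MCL1), 1 effector gene (BAK1) and 5 BH3-only genes (BID, BAD, BIK, BMF and BCL2L11). All 10 were present among the 19927 gene rows of the deposited count table. The family members best known as p53 targets, BAX, BBC3 and PMAIP1, were kept apart from these genes. Messenger RNA was sequenced from 2 cultures of Huh7, an established human hepatocellular carcinoma cell line. The shPPIL1 culture carried a hairpin RNA titled shPPIL1#1 and is labelled as a PPIL1 knockdown. The shControl culture carried a control hairpin and has WT in its genotype label. Each group held 1 library, so the values compare 2 libraries and not 2 conditions, and they carry counting error but no measure of how cultures vary. With no replicate check, p-values were not computed.

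Proteins of the BCL2 family decide whether the mitochondrial outer membrane is opened, the step that releases cytochrome c and starts caspase activation. Effectors such as BAK, encoded by BAK1, form the openings. Anti-apoptotic proteins hold effectors and BH3-only proteins through a surface groove, and BH3-only proteins either occupy that groove or activate the effectors directly. BCL-XL, encoded by BCL2L1, and MCL1 are the anti-apoptotic proteins on which hepatocytes are known to depend. PPIL1, the target of the hairpin, is a prolyl isomerase of the activated spliceosome.

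The short helix that fits the groove is the BH3 motif, and its coding stretch is shown because all 3 classes carry it and BH3-only proteins take their name from it. Each of the 10 genes held 1 match in its principal coding transcript to an 8-residue pattern, written as leucine or methionine, 3 free residues, glycine, alanine or serine, aspartate, then glutamate, aspartate, serine, glycine or glutamine, and phenylalanine, methionine, isoleucine or valine. The pattern was written with the motifs of these proteins in mind, so a match in every member was built in. It was also found in 3.22% of 19530 human coding genes, so a match alone does not mark a family member. The 30 bases below run 5′ to 3′ on the coding strand, with the 24 bases that encode the matched residues in capitals.
BCL2: accCTCCGCCAGGCCGGCGACGACTTCtcc
BCL2L1: gcgCTGAGGGAGGCAGGCGACGAGTTTgaa
BCL2L2: gccATGCGGGCAGCTGGAGATGAGTTCgag
MCL1: accTTACGACGGGTTGGGGATGGCGTGcag
BAK1: cagCTCGCCATCATCGGGGACGACATCaac
BID: cacCTCGCCCAGGTCGGGGACAGCATGgac
BAD: gagCTCCGGAGGATGAGTGACGAGTTTgtg
BIK: cggCTGGCCTGCATCGGGGACGAGATGgac
BMF: aagCTTCAGTGCATTGCAGACCAGTTCcac
BCL2L11: gagTTGCGGCGTATTGGAGACGAGTTTaac

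These stretches were taken from GENCODE release 29 transcripts on GRCh38, and each lay within a single coding exon. The BIK stretch lies on the plus strand at chr22:43127713-43127742, in exon 3 of 5. The BCL2L11 stretch lies on the plus strand at chr2:111150100-111150129, in exon 4 of 5, and the BID stretch lies on the minus strand at chr22:17739418-17739447, in exon 4 of 6. The most alike capital stretches were those of BAK1 and BIK, with 19 of 24 bases the same. The counts of a gene do not separate transcripts that hold this stretch from any that lack it.

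The libraries held 41165401 counted reads (shPPIL1) and 41015345 (shControl). PPIL1 had 104 reads in the shPPIL1 library, against 1505 in the shControl library, so 6.79% of its shControl level remained (5.51 to 8.29% as the 95% interval from counting error). Genes with 1 CPM (reads scaled to library size) or more in either library were kept, 12540 in all. All 10 hepatocyte and hepatoma markers were kept, with summed levels of 11650 FPKM in shPPIL1 and 11207 FPKM in shControl. FPKM is a read count scaled to gene length and library size. Of 5 fibroblast markers 2 were kept, with LUM at 13.7 FPKM in shPPIL1 and 13.8 FPKM in shControl and COL1A2 at 0 reads in both libraries. Of 4 endothelial markers 1 was kept (summed level 1.36 FPKM in shPPIL1 and 1.58 FPKM in shControl), and of 5 leukocyte markers 2 were kept (19.9 FPKM in shPPIL1 and 20.8 FPKM in shControl), most of it CD68. Mitochondrially encoded genes took 2.85% of reads in shPPIL1 and 2.43% in shControl, and the part of this difference in the results below was not tested.

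Of the 10 members, 9 were kept. BIK and BCL2L11 were at least 1.2-fold higher in the shPPIL1 library with a counting interval that excluded a ratio of 1, BID was lower by the same rule, and 6 members did not pass it. Over all kept genes, 17.8% passed the rule, 8.32% as higher and 9.52% as lower. Against that background the members' shares were 22.2% higher and 11.1% lower, but with 9 genes a single gene makes 11.1%. The median log2 ratio of the 9 members was -0.08, against 0.00 for all kept genes. All 3 members that passed the rule were BH3-only genes. Fewer cells that express a gene and less of its RNA per cell cannot be told apart in such bulk libraries.

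**Figure D1:**
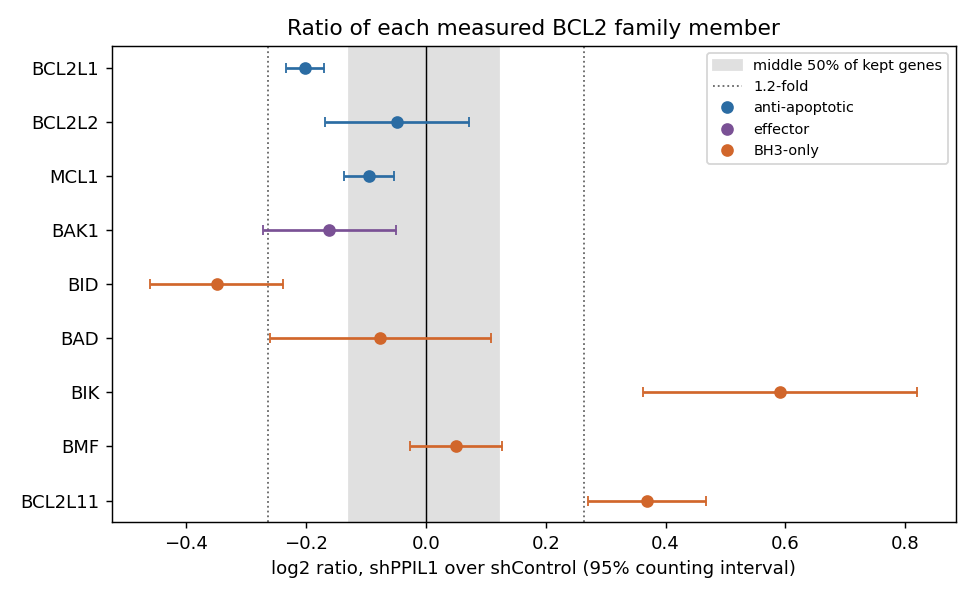
Log2 ratio of shPPIL1 over shControl for the 9 measured members, with exact 95% counting intervals. The grey band spans the middle 50% of all kept genes (-0.13 to 0.12), and dotted lines mark 1.2-fold. BIK (0.59) and BCL2L11 (0.37) lie to the right of the band, and BID (-0.35), BCL2L1 (-0.20) and BAK1 (-0.16) to the left.

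BIK was the member that differed most. It encodes a BH3-only protein that resides mainly at the endoplasmic reticulum, and it is a single-transcript gene at chr22:43110748-43129712 on the plus strand. BIK had 403 reads in the shPPIL1 library, against 263 reads in the shControl library, or 10.3 FPKM against 6.74 FPKM. The ratio was 1.51 (1.29 to 1.77), a log2 ratio of 0.59 (0.36 to 0.82). Of all kept genes, 4.31% lay at least as far from equal expression in either direction. BIK was the 1 member past 1.5-fold, a limit that 4.24% of all kept genes passed, 2.02% as higher and 2.22% as lower. It lay just past that limit, and on the FPKM + 1 scale its ratio was 1.46. No exon of another annotated gene overlapped BIK, and 0 of its 86 windows of 100 bases were found in a transcript of another gene.

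BCL2L11 encodes BIM, which binds all the main anti-apoptotic proteins and can activate the effectors directly. It lies at chr2:111119378-111168447 on the plus strand. BCL2L11 had 1964 reads in shPPIL1, against 1494 reads in shControl, or 13.2 FPKM against 10.1 FPKM. The ratio was 1.29 (1.21 to 1.38), a log2 ratio of 0.37 (0.27 to 0.47), and 11.5% of kept genes lay at least as far from equal expression. The counting intervals of BIK and BCL2L11 overlapped each other, and each lay above those of the 7 other measured members. BCL2L11 had 25 annotated transcripts, of which 17 are protein-coding and 8 are annotated as targets of nonsense-mediated decay, and its row does not separate them. Of its 6658 exonic bases, 727 overlap the opposite-strand noncoding gene MIR4435-2HG. The strand setting of the counting is not given, so reads of that gene may be included.

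BID encodes the BH3-only protein that caspase-8 cleaves, which carries the death receptor signal to mitochondria in hepatocytes. It lies at chr22:17734138-17774770 on the minus strand. BID had 1189 reads in shPPIL1, against 1488 reads in shControl, or 13.5 FPKM against 16.9 FPKM. The ratio was 0.785 (0.727 to 0.848), a log2 ratio of -0.35 (-0.46 to -0.24), and 12.8% of kept genes lay at least as far from equal expression. BID thus moved the other way from BIK and BCL2L11 within the same class. Its interval lay below those of 6 of the 8 other measured members and overlapped those of BAK1 and BAD.

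The remaining BH3-only genes differed little. BMF encodes a BH3-only protein that is held on the cytoskeleton until released, and it had 2811 reads in shPPIL1 and 2667 reads in shControl, a ratio of 1.04 (0.982 to 1.09). BAD encodes a BH3-only protein that survival kinases inactivate by phosphorylation, and it had 476 reads in shPPIL1 and 493 reads in shControl, a ratio of 0.949 (0.835 to 1.08). Both intervals included 1. The BAD interval is the wider of the 2, since fewer reads stand behind it. Over the 5 BH3-only genes the log2 ratios ran from -0.35 to 0.59, with a median of 0.05.

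The 3 measured anti-apoptotic genes had ratios below 1, and 0 of them passed the 1.2-fold rule. BCL2L1, at chr20:31664452-31723989 on the minus strand, had 15239 reads in shPPIL1 and 17222 reads in shControl, or 151 FPKM and 171 FPKM. Its ratio was 0.869 (0.851 to 0.889), and 31.0% of kept genes lay at least as far from equal expression. MCL1, which encodes a short-lived protein and lies at chr1:150574551-150579738 on the minus strand, had 9226 reads in shPPIL1 and 9682 reads in shControl, a ratio of 0.936 (0.910 to 0.963). BCL2L2, which encodes BCL-W, had 1115 reads in shPPIL1 and 1133 reads in shControl, a ratio of 0.967 (0.889 to 1.05). The intervals of BCL2L1 and MCL1 excluded 1, as did those of 51.1% of all kept genes, and 26.4% of kept genes were lower by that measure. The depth behind BCL2L1 and MCL1 makes small ratios stand clear of counting error, which says nothing of how much 2 cultures vary.

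BCL2, which gave the family its name, was barely detected. It had 3 reads in shPPIL1 and 2 reads in shControl, or 0.0192 FPKM and 0.0128 FPKM. Both counts are at or under the floor of 3 reads, so no fold is given. The gene occupies chr18:63123346-63320128 on the minus strand, and its counting intervals reached up to 0.0560 FPKM in shPPIL1 and 0.0463 FPKM in shControl.

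BAK1, the effector gene at chr6:33572547-33580293 on the minus strand, had 1264 reads in shPPIL1 and 1389 reads in shControl, or 17.0 FPKM and 18.8 FPKM. The ratio was 0.894 (0.828 to 0.966), short of 1.2-fold. Its interval overlapped those of all 3 measured anti-apoptotic genes. BAK1 shared 8 of 204 windows of 100 bases with the pseudogene BAK1P1.

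**Figure D2:**
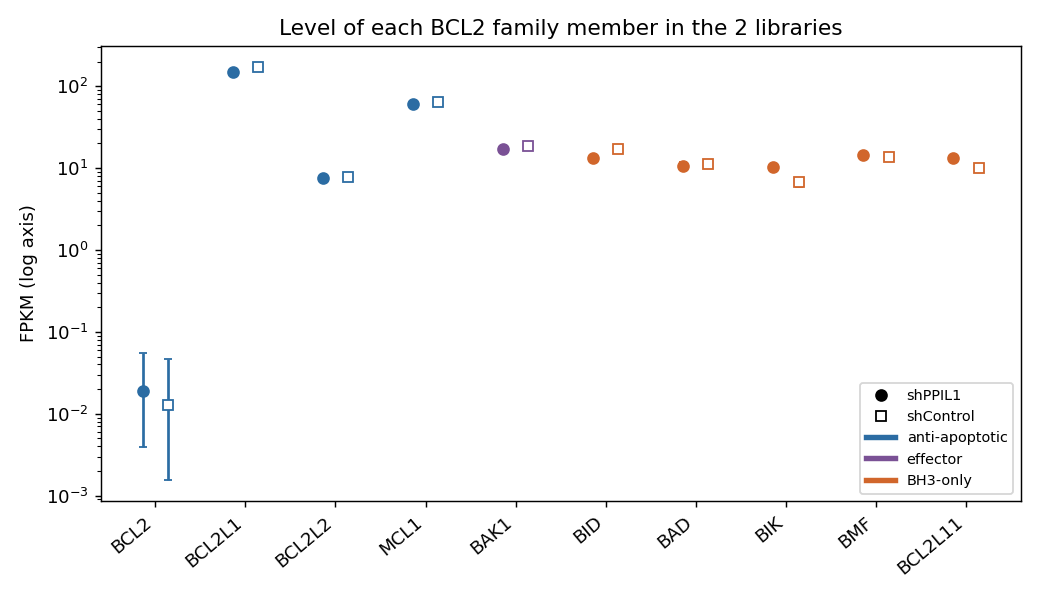
FPKM of each member (log axis) in the shPPIL1 library (filled circles) and the shControl library (open squares), coloured by class, with 95% counting intervals. BCL2L1 and MCL1 stand highest in both libraries, BCL2 lies below 0.1 FPKM in both, and the other 7 members lie between 6.74 and 18.8 FPKM.

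Levels within the family spread far more than the ratios did. In both libraries BCL2L1 was highest, MCL1 was second, BAK1 came next and BCL2 was last. In the shPPIL1 library the order below BAK1 was BMF, BID, BCL2L11, BAD, BIK and BCL2L2, with overlapping counting intervals between BMF and BID, BID and BCL2L11, and BAD and BIK. In the shControl library it was BID, BMF, BAD, BCL2L11, BCL2L2 and BIK, with overlapping intervals between BAD and BCL2L11 and between BCL2L2 and BIK. BCL2L1 exceeded MCL1 by 2.50-fold in shPPIL1 and 2.69-fold in shControl, on the FPKM scale. These levels rest on the gene length that the authors used, which was 951 bases for BIK (953 exonic bases in GENCODE) but 3620 for BCL2L11 (6658 exonic bases), so another choice of transcripts could change the order.

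Summed by class, the anti-apoptotic genes reached 219 FPKM in shPPIL1 and 242 FPKM in shControl. The BH3-only genes reached 62.1 FPKM in shPPIL1 and 58.7 FPKM in shControl. The anti-apoptotic sum was 3.52 times the BH3-only sum in shPPIL1 and 4.13 times in shControl. On the scale of FPKM differences, BCL2L1 alone differed by -20.2, larger in size than the net difference of 3.49 over all 5 BH3-only genes. Within the BH3-only sum, the differences in FPKM were 3.55 for BIK, 3.12 for BCL2L11, 0.69 for BMF, -0.42 for BAD and -3.44 for BID. The summed reads of the BH3-only genes had a ratio of 1.05 (1.01 to 1.09), and those of the anti-apoptotic genes a ratio of 0.896 (0.881 to 0.912). Transcript sums give no protein amounts, and the proteins differ in which partners they bind.

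**Figure D3:**
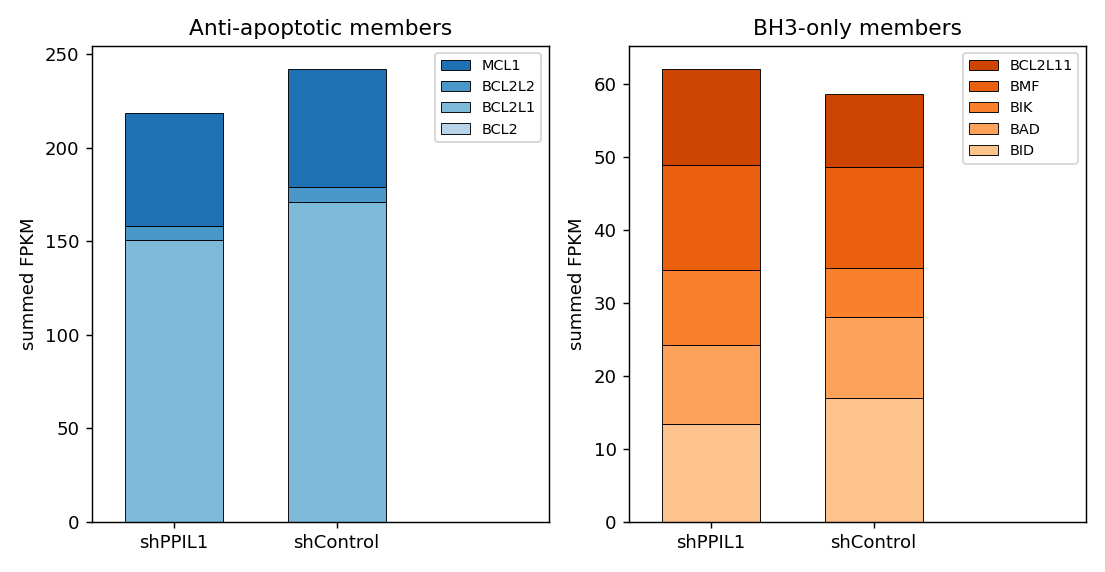
Summed FPKM of the anti-apoptotic members (left) and the BH3-only members (right) in the shPPIL1 and shControl libraries, stacked by gene, each panel on its own axis from 0. BCL2L1 makes up 68.9% of the anti-apoptotic sum in shPPIL1 and 70.5% in shControl, and BIK makes up 16.6% of the BH3-only sum in shPPIL1 and 11.5% in shControl.

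The composition of the BH3-only sum also differed between the 2 libraries. BID made up 21.6% of it in shPPIL1 and 28.8% in shControl. BIK made up 16.6% in shPPIL1 and 11.5% in shControl, and BCL2L11 21.2% in shPPIL1 and 17.2% in shControl. The shares of BMF were 23.3% in shPPIL1 and 23.5% in shControl, and those of BAD 17.3% in shPPIL1 and 19.0% in shControl. BID was the most abundant BH3-only transcript per length in the shControl library, and BMF and BID had overlapping intervals at the top in the shPPIL1 library.

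**Figure D4:**
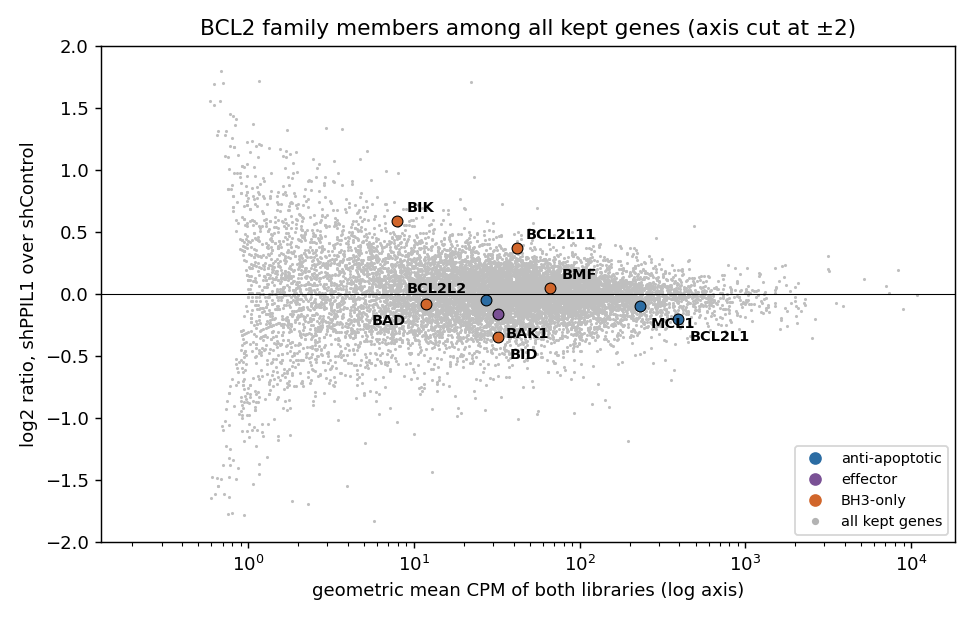
Log2 ratio of shPPIL1 over shControl against the geometric mean CPM of both libraries (log axis) for all 12540 kept genes (grey) and the 9 measured members (coloured by class). The vertical axis is cut at 2 in either direction, which leaves out 19 genes. BIK (0.59) is the highest member, BID (-0.35) the lowest, and BCL2L1 the most abundant at -0.20.

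Splicing of several members is known to give proteins of opposite function, such as the long and short forms of BCL-X and of MCL1. The row of each gene does not separate these forms, so the values above cannot show which form changed. How reads were counted over transcripts is not given, so an effect of splicing on a row cannot be told apart from a change in amount. BCL2L1 had 9 annotated transcripts and MCL1 had 4. Overlapping annotation also touched other members. Of the 3314 exonic bases of BCL2L1, 1424 overlap the opposite-strand gene ABALON, and of the 1708 of BAD, 404 overlap GPR137, which had a ratio of 0.979 (0.890 to 1.08). BCL2L2 shared 49 of 351 windows with the readthrough gene BCL2L2-PABPN1, which had 2 reads in shPPIL1 and 5 in shControl.

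Promoters of 7 members were held in the RefSeq table (GRCh38.p14), as windows from 250 bases before to 50 bases after each annotated start, with several starts for some genes. BIK, MCL1 and BCL2L2 had no window there, so their promoters were not searched. Both strands were searched for the FOXO motif GTAAACA, the MYC-binding E-box CACGTG, the letters TATAAA and E2F motifs (TTTCGCGC, TTTGGCGC or TTTCCCGC), which were chosen with the ratios known. BCL2L11 was the member with the FOXO motif, which 3.42% of 35116 promoter windows held. BID was the member with the E-box, held by 7.26% of windows. These shares are per window, whereas BID had 5 windows, BCL2L1 had 2 and BCL2L11 had 1. A gene with several windows can hold a motif more often than the share per window. TATAAA was found in BCL2L1 (11.5% of windows), 208 and 125 bases before a start, and the E2F motifs in 0 of the 7 members (2.74% of windows). The matches of BCL2L11 and BID, which both passed the 1.2-fold rule, are shown with the motif in capitals. The first lies on the plus strand at chr2:111120683-111120705 and the second on the minus strand at chr22:17774076-17774097. The BCL2L11 match stands 223 bases before a RefSeq start. The BID match is the same site seen from overlapping windows, 106 or 47 bases before a start. Both lie inside the GENCODE gene spans given above, so they are upstream of some annotated starts only.
BCL2L11: ttactccgGTAAACAcgccaggg
BID: gtcctctcCACGTGgcctgggg

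FOXO3, a transcription factor known to induce BCL2L11, had 1455 reads in shPPIL1, against 1160 reads in shControl, a ratio of 1.23 (1.14 to 1.33). The other measured FOXO genes of the list did not pass the 1.2-fold rule, with ratios of 0.901 (0.767 to 1.06) for FOXO1 and 1.07 (0.928 to 1.22) for FOXO4. MYC, named after its values were seen, had 4133 reads in shPPIL1, against 6726 reads in shControl, a ratio of 0.604 (0.581 to 0.628). A match of letters is a description and does not show binding. Whether FOXO3 acts on BCL2L11, or MYC on BID, was not tested. The 6-base motif GATCAT, picked in an earlier search of these same libraries, stood in the 3′ UTR of BCL2, BCL2L1 and MCL1, and the other 7 members lacked it there and in their coding sequence. Of 12119 kept genes with a coding transcript, 23.8% held it in the 3′ UTR and 46.6% held it in either part.

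Of the p53-target relatives, PMAIP1 was higher and BAX and BBC3 did not pass the 1.2-fold rule. BAX, an effector, had 3904 reads in shPPIL1 and 3618 reads in shControl, a ratio of 1.06 (1.01 to 1.11). BBC3, which encodes PUMA, had 243 reads in each library, a ratio of 0.982 (0.819 to 1.18). PMAIP1, which encodes the MCL1-binding protein NOXA, had 390 reads in shPPIL1 and 308 reads in shControl, a ratio of 1.24 (1.07 to 1.45), which fell short of 1.2-fold on the FPKM + 1 scale. Of 13 further family genes, these 3 included, 10 were kept, with 2 higher, 0 lower and a median log2 ratio of 0.13. Of all kept genes, 8.32% were higher and 9.52% lower by the same rule. The other higher gene was BCL2L14, a family member of debated function, with a log2 ratio of 0.27 (0.05 to 0.49). It too fell short of 1.2-fold on the FPKM + 1 scale, with a ratio of 1.17. BCL2L10 had 0 reads in both libraries, which allows up to 0.0729 CPM in shPPIL1 and 0.0731 CPM in shControl.

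For the lists that follow, the shares of all kept genes past the 1.2-fold rule were 8.32% higher and 9.52% lower. Downstream of the membrane step, 0 of 9 apoptosome and caspase genes passed the 1.2-fold rule, with a median log2 ratio of 0.16. By the interval alone, 5 of the 9 were higher and 1 was lower, against 24.6% and 26.4% of all kept genes. Of 8 death receptor and adaptor genes, 0 were higher and 2 were lower, with a median of -0.15. By the interval alone, 0 of the 8 were higher and 5 were lower, against the same 24.6% and 26.4% of all kept genes. The 2 genes past the 1.2-fold rule were TRADD, an adaptor of tumour necrosis factor receptor signalling (ratio 0.810, 0.685 to 0.958), and TNFRSF10B, a TRAIL receptor (0.825, 0.784 to 0.867), which did not pass with library totals alone (0.837). Of 10 kept genes for inhibitors of apoptosis and their antagonists, 1 was higher, namely NAIP (4.88, 3.38 to 7.24), which has near-identical copies in the genome that can share its reads. NAIP had 174 reads (4.20 CPM) in shPPIL1 and 35 reads (0.859 CPM) in shControl, so it was kept through the shPPIL1 library alone. On the FPKM + 1 scale its ratio was 1.44. The 6 outer membrane partners held 0 genes past the rule (median -0.02).

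Among 12 genes that act on the stability or activity of MCL1, BIM or BAD, PIM2 was higher and AKT1 and USP13 were lower (median 0.01). PIM2, a kinase that phosphorylates BAD, had a ratio of 1.40 (1.34 to 1.48). AKT1, another BAD kinase, had a ratio of 0.790 (0.752 to 0.830). USP13, a deubiquitinase of MCL1, had a ratio of 0.813 (0.729 to 0.906). Of 8 transcription factors known to drive BH3-only genes, FOXO3 and the p53 relative TP73 (1.33, 1.13 to 1.57) were higher and 0 were lower (median 0.06). Over all 7 lists, 6 of 63 kept genes were higher (9.52%) and 4 lower (6.35%), close to the 8.32% and 9.52% of all kept genes. By the interval alone, 17 of the 63 were higher and 14 lower, beside 24.6% and 26.4% of all kept genes.

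**Figure D5:**
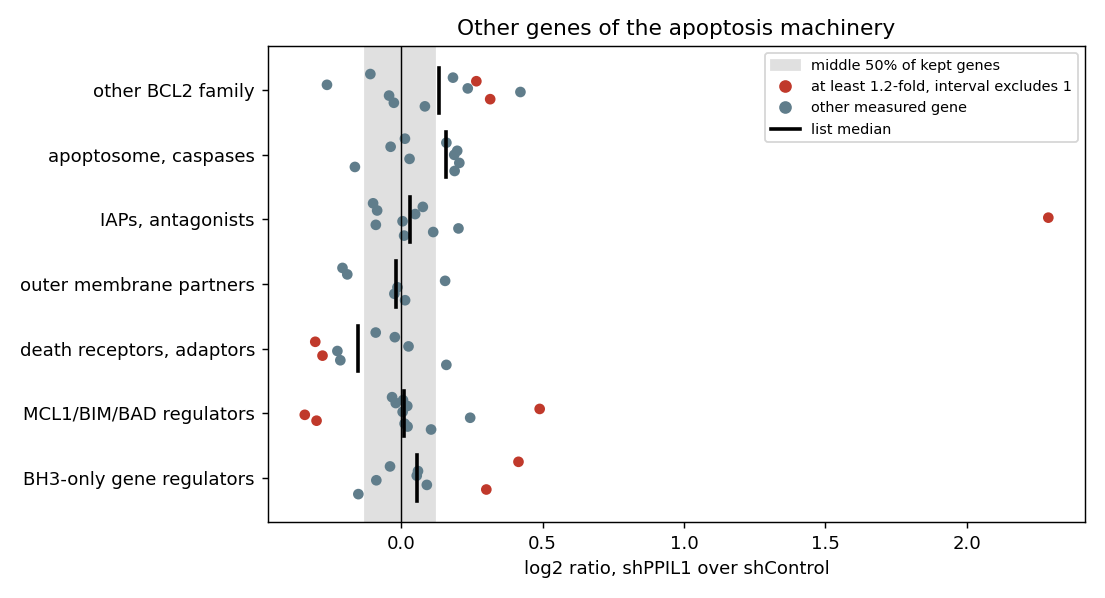
Log2 ratio of shPPIL1 over shControl for 63 kept genes of 7 other lists of the apoptosis machinery, 1 point per gene, with list medians as black bars and the middle 50% of all kept genes in grey. Red points passed the 1.2-fold rule. NAIP, at 2.29 and kept through its shPPIL1 level alone, stands far from the rest, and the other genes lie between -0.34 and 0.49.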

How the data were processed

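The deposited table holds whole-number read counts for every gene, and the authors' FPKM values came as a file for each library. Per the submitters' processing notes the build was hg38. How reads were aligned, counted and assigned to strands is not given in the sources used. Another 7 count columns could not be tied to a labelled sample and were left out. Counts divided by the library total and the FPKM gave whole-number gene lengths (tolerance 0.001 bases) for 99.9% of genes in each library.

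Library totals were scaled with TMM factors (1.01 for shPPIL1, 0.993 for shControl; edgeR 4.0.16, R 4.3.3). Each ratio is shPPIL1 over shControl with an exact 95% Clopper-Pearson interval on the gene's reads. The interval takes every read as independent and holds no spread between cultures. PCR copies were not marked, and whether both mates of a read pair were counted is not given. Low counts were often even, so reads may not be independent and the intervals may be too narrow. Calls whose interval lies close to 1 are the least secure. The 1.2-fold rule asked for a ratio of 1.2 or more in either direction and an interval without 1. The code was tested on simulated counts (seed 1). Sequences came from GENCODE release 29 and RefSeq (GRCh38.p14). Named genes were all members, PPIL1, BAX, BBC3, PMAIP1, family genes at 0 reads and up to 2 called genes per direction of each other list. Outside this rule, FOXO1 and FOXO4 were named beside FOXO3, and MYC after its values were seen. Genes that overlap or share sequence with a member, and some cell type markers, were also named outside it. Members, lists and thresholds were chosen with earlier results of these data known. Alternatives covered scaling (DESeq2 1.42.0 size factors, upper quartile, totals), filters, FPKM with pseudocounts of 1 and 0.1, and the fold.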

Additional observations from a re-analysis of the deposited data

How the results depend on the processing

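The 9 measured members kept their direction and their side of the 1.2-fold rule under library totals, DESeq2 size factors, upper-quartile factors, no filter, a filter at 5 CPM and FPKM with a pseudocount of 1 or 0.1. The log2 ratio ran from 0.54 to 0.61 for BIK, from 0.36 to 0.39 for BCL2L11 and from -0.35 to -0.31 for BID. The count of members depends on the fold. At 1.5-fold 1 was higher (BIK, which missed this limit with FPKM + 1) and 0 lower, and with the interval alone 2 were higher and 4 lower. Of all kept genes, 2.02% were higher and 2.22% lower at 1.5-fold, and 24.6% were higher and 26.4% lower with the interval alone. With FPKM + 1, 704 of all kept genes were higher, against 1043, and 698 were lower, against 1194. On that scale 3 genes of the other apoptosis lists were higher and 1 lower. PMAIP1, BCL2L14, TP73, TRADD, TNFRSF10B and USP13 no longer passed there, TNFRSF10B also not with FPKM + 0.1 or library totals, and NAIP was removed by the 5 CPM filter. A pseudocount of 1 shrinks the ratios of low genes by construction. The anti-apoptotic share of the members' summed FPKM was 73.4% in shPPIL1 and 75.8% in shControl, the BH3-only share 20.9% and 18.3% in that order, and the effector share 5.72% and 5.88%. By CPM, not per length, these became 75.9% and 78.2%, 20.3% and 17.9%, and 3.75% and 3.88%. Without MCL1 they became 66.7% and 69.8%, 26.2% and 22.9%, and 7.17% and 7.34%. No paired analysis was possible because each group held 1 library. Depth limits BIK and BAD most among the kept members, and BCL2 could not be compared at this depth.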
